A study of Mus musculus with 8 samples.

Results

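The nuclear genes of oxidative phosphorylation were followed in mouse testis, as read counts and as poly(A) tail lengths of single RNA molecules. Members were chosen by gene symbol alone: every transcript whose symbol starts with Nduf, Uqcr or Atp5, is Sdha to Sdhd, starts with Cox4 to Cox8, or is Cycs or Cyct. The rule took 92 of 2783 transcripts, from 81 of 2243 named genes. By symbol, 35 transcripts belonged to complex I, 4 to complex II, 9 to complex III, 16 to complex IV, 25 to complex V and 2 to cytochrome c, and 1 (Ndufaf3) encodes an assembly factor. Ndufa4 was kept with complex I by its name, although its protein is now placed in complex IV. Whole testes of adult male mice came from 4 groups of 2 animals: Tent5c wt/wt after vehicle, Tent5c wt/wt after busulfan, Tent5c dcat/dcat after vehicle and Tent5c dcat/dcat after busulfan. TENT5C is a poly(A) polymerase of the cytoplasm, and the dcat allele encodes a catalytically dead form, carried in every cell of the animal. Busulfan, an alkylating agent that kills dividing germ cells, was given once at 20 mg/kg, and testes were taken 4 weeks after busulfan or vehicle. RNA was sequenced directly on nanopores, so that 1 read is 1 poly(A) RNA molecule and reads of different genes can be set side by side without scaling by length.

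The respiratory chain passes electrons from NADH (complex I) or succinate (complex II) through complex III and the mobile carrier cytochrome c to oxygen at complex IV, and complex V uses the resulting proton gradient to make ATP. Most subunits are encoded in the nucleus and a few in the mitochondrial genome. Male germ cells are known for replacing some subunits with testis forms encoded by separate genes, among them Cyct for Cycs and Cox6b2, Cox7b2 and Cox8c for Cox6b1, Cox7b and Cox8a.

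The 8 libraries held from 29574 reads (dcat/dcat vehicle replicate 1) to 129074 reads (dcat/dcat vehicle replicate 2), and the members took 3.14% to 4.23% of them. Members with at least 10 reads numbered 39 in the smallest library and 58 to 86 in the others. The tissue matched its label: all 10 late spermatid markers (Prm1, Prm2, Tnp1 and others) were read, and their summed level was 92243 to 116010 RPM (reads per 1000000 reads of the library) after vehicle. That sum was 8917 and 12363 RPM in the wt/wt busulfan libraries and 20949 and 37694 in the dcat/dcat ones. Of 9 Leydig cell markers, the 8 that were read summed to 3665 to 6594 RPM after vehicle and to 21293 to 45952 after busulfan, and the 5 of 8 Sertoli cell markers that were read to 1872 to 2942 and to 13619 to 18436. In whole tissue, fewer cells of a type and less RNA per cell cannot be told apart. These sums moved with each busulfan result described here, and their part in those results was not tested. Tent5c itself was read at 744 to 891 RPM after vehicle and 269 to 683 after busulfan, values that do not check the genotype since the dcat allele is still transcribed.

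The isoform pairs carry the main contrast, so the sequences that set them apart are shown first. Cyct and Cycs encode the testis and the somatic cytochrome c, with coding sequences of 315 nt each that are 76.2% identical and share no run longer than 14 nt, so a read of one differs from the other throughout. The first 300 coding bases of each transcript (GRCm38, Cyct on chromosome 2 and Cycs on chromosome 6) follow, with the 66 bases that differ between them in capitals.
Cyct: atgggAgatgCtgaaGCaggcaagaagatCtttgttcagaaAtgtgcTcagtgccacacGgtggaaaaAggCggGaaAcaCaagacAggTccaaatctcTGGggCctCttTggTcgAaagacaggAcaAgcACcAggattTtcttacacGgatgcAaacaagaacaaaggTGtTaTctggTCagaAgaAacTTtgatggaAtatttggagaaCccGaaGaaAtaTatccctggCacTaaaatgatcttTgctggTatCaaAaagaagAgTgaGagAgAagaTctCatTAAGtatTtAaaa
Cycs: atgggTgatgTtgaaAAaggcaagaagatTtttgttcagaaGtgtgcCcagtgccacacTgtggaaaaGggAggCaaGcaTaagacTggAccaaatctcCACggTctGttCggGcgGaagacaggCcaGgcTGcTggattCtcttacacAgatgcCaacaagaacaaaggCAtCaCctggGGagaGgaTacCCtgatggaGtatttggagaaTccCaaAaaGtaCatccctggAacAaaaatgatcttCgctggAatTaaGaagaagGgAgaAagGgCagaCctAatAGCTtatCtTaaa
The other pairs were less alike or about as alike: Cox6b2 and Cox6b1 were 61.5% identical over the aligned coding sequence, Cox7b2 and Cox7b 65.1%, Cox8c and Cox8a 51.7%, and Ndufb11b and Ndufb11 76.0%. Ndufb11b, listed in GENCODE as 1700029P11Rik, is a gene of 1 exon at chr15:81980540-81981563, while Ndufb11 has 3 exons on chromosome X.

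Promoters were taken from RefSeq (GRCm38.p6), which matched 67 of the 81 member genes with 72 promoters, each running from 250 bases before the start to 50 after it. Motifs linked to respiratory or spermatid genes were looked for on both strands. The site of nuclear respiratory factor 1 (GCATGCGC) was present in 10 member promoters (13.9%) and in 2.71% of all 32851 promoters of the table. The ETS site (CCGGAAGT) was present in 5 (6.94%, against 3.89% of all), and the cyclic AMP response element (TGACGTCA) in 4 (5.56%, against 1.79%). The 250 bases before the start of both cytochrome c genes and of Cox7b2 and Cox7b are shown because these genes moved in opposite directions, with the motif letters in capitals.
Cyct, chr2:76360454-76360703, minus strand: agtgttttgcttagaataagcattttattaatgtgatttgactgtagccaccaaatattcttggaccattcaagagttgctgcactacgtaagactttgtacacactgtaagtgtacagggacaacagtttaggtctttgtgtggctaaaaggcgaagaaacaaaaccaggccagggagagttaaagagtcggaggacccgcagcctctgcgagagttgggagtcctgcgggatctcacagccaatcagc
Cycs, chr6:50566570-50566819, minus strand: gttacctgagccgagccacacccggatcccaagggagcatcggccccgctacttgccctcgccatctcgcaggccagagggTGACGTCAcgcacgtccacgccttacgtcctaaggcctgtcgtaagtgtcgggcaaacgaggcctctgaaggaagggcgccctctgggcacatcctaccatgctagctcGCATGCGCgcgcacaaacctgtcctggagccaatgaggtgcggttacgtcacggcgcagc
Cox7b2, chr5:71548206-71548455, minus strand: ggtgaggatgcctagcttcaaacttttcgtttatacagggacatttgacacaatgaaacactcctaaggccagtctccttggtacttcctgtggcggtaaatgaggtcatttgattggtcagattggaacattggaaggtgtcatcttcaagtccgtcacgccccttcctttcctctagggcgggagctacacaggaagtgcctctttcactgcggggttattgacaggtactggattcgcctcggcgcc
Cox7b, chrX:106015450-106015699, plus strand: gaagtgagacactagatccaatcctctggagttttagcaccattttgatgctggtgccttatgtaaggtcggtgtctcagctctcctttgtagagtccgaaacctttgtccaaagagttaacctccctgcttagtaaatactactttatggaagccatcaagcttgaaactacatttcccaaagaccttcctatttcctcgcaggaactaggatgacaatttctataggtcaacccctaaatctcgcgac
Only the Cycs stretch of these 4 held motif letters, the nuclear respiratory factor 1 site from base -60 and the cyclic AMP response element from base -169 relative to the start. These matches are descriptions of letters and not measured sites.

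After busulfan, the members were divided, with somatic partners of testis forms higher and the testis forms lower. In wt/wt testis, 28 of 92 members rose (27 genes) and 11 fell (10 genes) by edgeR's quasi-likelihood test at an adjusted p under 0.05. Of all 2783 transcripts, 35.4% rose and 38.3% fell in the same comparison, so the share of members that rose (30.4%) was near that of all transcripts and the share that fell (12.0%) was lower. The median log2 fold change was 0.50 over the members and 0.09 over all transcripts. In dcat/dcat testis, 21 of 92 members rose and 10 fell, against 31.3% and 31.4% of all transcripts, with medians of 0.51 and 0.14. DESeq2 called 25 members in wt/wt and 17 in dcat/dcat, and without dcat/dcat vehicle replicate 2 edgeR called 15 in dcat/dcat. Among the genes described below, DESeq2 did not call Sdhb, Cyc1, Atp5f1c, Ndufc1, Ndufb9 and Atp5mc2 in wt/wt (adjusted p from 0.0582 to 0.174), nor Sdhd, Atp5f1c, Cox6b2, Ndufaf3 and the minor transcripts of Uqcrq and Atp5mj in dcat/dcat (adjusted p from 0.0507 to 0.153). The wt/wt and dcat/dcat comparisons share no libraries, but both came from 1 model fitted to all 8 libraries. The members that rose in both numbered 16 (57.1% of those in wt/wt and 76.2% of those in dcat/dcat), and 10 fell in both (90.9% of those in wt/wt and all of those in dcat/dcat). The matching shares over all transcripts were not taken, so these counts do not set the members apart. All 92 were tested, but a transcript enters the table only where both mice of some group gave 10 reads or more, so one that was low everywhere is not among them. No p-value given here allows for transcripts that entered only through a group where they were high.

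**Figure D1:**
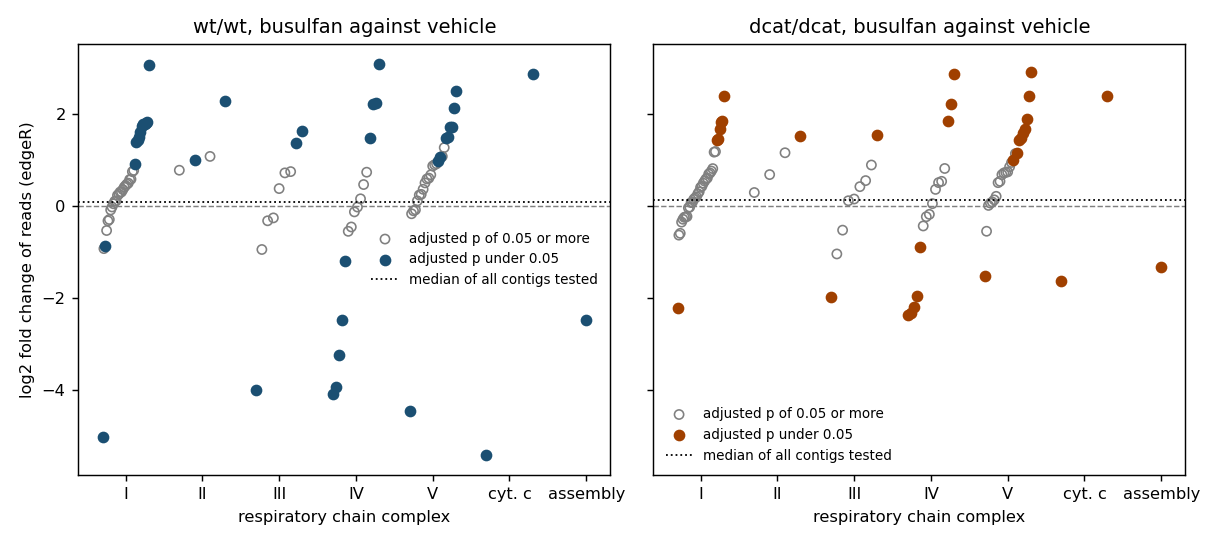
Log2 fold change of reads after busulfan against vehicle for each of the 92 member transcripts, by complex, in wt/wt (left) and dcat/dcat (right) testis. Filled circles have an adjusted p under 0.05 (edgeR), open circles do not, and the dotted line is the median of all 2783 transcripts; in wt/wt, complex IV spans -4.09 to 3.11 while no transcript of complex II lies below 0.78.

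Cytochrome c showed the contrast most plainly. Cycs, the somatic electron carrier, stood at 217 and 208 RPM in the wt/wt vehicle libraries (replicate 1, then replicate 2, as in all lists here) and at 1590 and 1629 after busulfan. In dcat/dcat testis it stood at 406 and 256 after vehicle and 1724 and 1479 after busulfan. The groups did not overlap in either genotype, and Cycs rose by 2.87 ± 0.40 (log2, SE; edgeR, adjusted p = 2.0e-06) in wt/wt and by 2.40 ± 0.39 (adjusted p = 6.3e-05) in dcat/dcat. Cyct, the testis form, was read 15 and 22 times in the wt/wt vehicle libraries and 0 and 1 times after busulfan. In dcat/dcat testis it was read 9 and 37 times after vehicle and 1 and 14 times after busulfan. The busulfan libraries were below the vehicle libraries in both genotypes, and the 1 busulfan read of wt/wt gave a ratio of vehicle over busulfan of 54.6 with an exact 95% counting interval of 9.22 to 2220. The fitted change of Cyct was -5.43 ± 0.91 in wt/wt (edgeR, adjusted p = 1.59e-05) and -1.64 ± 0.58 in dcat/dcat (adjusted p = 0.017). The latter call was lost without dcat/dcat busulfan replicate 1 (-0.96, adjusted p = 0.162) or dcat/dcat vehicle replicate 2 (-1.58, adjusted p = 0.131).

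Complex IV, which reduces oxygen, holds the other testis forms. Cox8c, a testis form of the small subunit VIII, was the most abundant of them at 1694 and 1663 RPM in wt/wt after vehicle and 90.8 and 104 after busulfan. In dcat/dcat testis Cox8c stood at 2063 and 1867 after vehicle and 130 and 589 after busulfan. Its somatic partner Cox8a went the other way, from 236 and 152 to 1090 and 823 in wt/wt and from 237 and 147 to 895 and 734 in dcat/dcat. Vehicle and busulfan libraries did not overlap for either gene. Cox8c changed by -4.09 ± 0.51 (edgeR, adjusted p = 5.58e-07) and -2.32 ± 0.44 (adjusted p = 2.3e-04) in wt/wt and dcat/dcat, and Cox8a by 2.25 ± 0.42 (adjusted p = 5.29e-05) and 2.23 ± 0.43 (adjusted p = 2.84e-04).

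Cox7b2, the testis form of subunit VIIb, was read at 788 and 749 RPM in wt/wt after vehicle and 45.4 and 52.0 after busulfan. In dcat/dcat it was read at 1420 and 914, then 97.6 and 352. X-linked Cox7b, the somatic form, was read at 39.4 and 55.4 in wt/wt after vehicle and 424 and 459 after busulfan. The values in dcat/dcat were 67.6 and 46.5, then 553 and 248. All 4 vehicle libraries lay above all 4 busulfan libraries for Cox7b2 and below them for Cox7b. Cox7b2 changed by -3.94 ± 0.57 (edgeR, adjusted p = 2.77e-06) in wt/wt and -2.19 ± 0.45 (adjusted p = 4.4e-04) in dcat/dcat, and Cox7b by 3.11 ± 0.61 (adjusted p = 8.75e-05) and 2.87 ± 0.60 (adjusted p = 5.21e-04).

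Cox6b2, the testis form of subunit VIb, was less even. It was read 31 and 33 times in wt/wt after vehicle and 5 times in each busulfan library, and in dcat/dcat 0 and 51 times after vehicle and 3 and 8 times after busulfan. The absence of reads in dcat/dcat vehicle replicate 1 was in the smallest library, where 0 of 29574 reads allows up to 101 RPM, against 395 in the other mouse of that group. Cox6b1, the somatic form, was read at 118 and 139 RPM in wt/wt after vehicle and 590 and 667 after busulfan, and at 237 and 101, then 423 and 558, in dcat/dcat. Cox6b2 changed by -3.24 ± 0.67 in wt/wt (edgeR, adjusted p = 1.51e-04) and by -1.95 ± 0.69 in dcat/dcat (adjusted p = 0.0175), where the groups overlapped. Cox6b1 rose by 2.23 ± 0.48 (adjusted p = 2.45e-04) and 1.86 ± 0.49 (adjusted p = 0.00279). Without dcat/dcat vehicle replicate 2 the dcat/dcat values were 5.32 (adjusted p = 0.133) for Cox6b2, set against the library with 0 reads, and the call of Cox6b1 was lost (adjusted p = 0.116).

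A member of complex I followed the same course and was added as a pair after its values were seen. Ndufb11b was read 12 and 16 times in wt/wt after vehicle and 1 and 0 times after busulfan, and 7 and 37, then 4 and 5 times in dcat/dcat. Its X-linked paralogue Ndufb11, a membrane-arm subunit, was read 3 and 5 times in wt/wt after vehicle and 49 and 53 times after busulfan, and 6 and 5, then 30 and 35 times in dcat/dcat. Ndufb11b changed by -5.02 ± 0.85 (edgeR, adjusted p = 1.75e-05) and -2.21 ± 0.56 (adjusted p = 0.00194), and Ndufb11 by 3.08 ± 0.58 (adjusted p = 6.11e-05) and 2.41 ± 0.59 (adjusted p = 0.00157). Ndufb11b reached the read minimum for inclusion only after vehicle and Ndufb11 only after busulfan, which these p-values do not allow for. The busulfan read of Ndufb11b in wt/wt gave a vehicle over busulfan ratio of 41.3 with a counting interval of 6.84 to 1690. Both dcat/dcat calls were lost without dcat/dcat vehicle replicate 2, at -1.89 (adjusted p = 0.0923) for Ndufb11b and 1.18 (adjusted p = 0.161) for Ndufb11.

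Set against each other within a library, where sequencing depth cancels, the testis forms outnumbered the somatic forms after vehicle, except for Cyct and Cox6b2 in dcat/dcat vehicle replicate 1. They were outnumbered after busulfan, except for Cox7b2 in dcat/dcat busulfan replicate 2 (34 against 24 reads). The log2 ratio of reads (0.5 read added to each form) for Cyct over Cycs was 0.48 ± 0.08 (SD, n = 2) in wt/wt after vehicle, -0.12 ± 0.40 in dcat/dcat after vehicle, -7.35 ± 0.53 in wt/wt after busulfan and -4.73 ± 2.01 in dcat/dcat after busulfan. For Cox7b2 over Cox7b the same 4 groups gave 3.81 ± 0.30, 4.14 ± 0.07, -3.03 ± 0.01 and -0.96 ± 2.05. For Cox8c over Cox8a they gave 3.09 ± 0.42, 3.33 ± 0.42, -3.21 ± 0.39 and -1.51 ± 1.69. Among all 8 libraries, the mean of the 4 busulfan libraries minus that of the 4 vehicle libraries was -6.22 for Cyct over Cycs, -5.97 for Cox7b2 over Cox7b and -5.57 for Cox8c over Cox8a, and the 2 sets of libraries did not overlap. Each of these gave p = 0.0286 in an exact two-sided permutation test, the smallest that its 70 splits allow, and 0.0381 after Benjamini-Hochberg adjustment over the 4 pairs compared. With libraries exchanged only within their multiplexed library, a replicate block of 36 splits, each gave an exact permutation p = 0.0556. That is the smallest those splits allow, so the blocked test could not pass the threshold. Cyct, Cox7b2, Cox8c, Cox6b2 and Ndufb11b reached the read minimum for inclusion only after vehicle. Cox7b, Cox6b1 and Ndufb11 reached it only after busulfan. Cycs and Cox8a reached it after both. All but Cycs and Cox8a were thus admitted through groups where they were high. Neither the permutation tests nor the edgeR tests above allow for that. Within multiplexed libraries 1 and 2 the differences were -6.95 and -5.49 for Cyct over Cycs, -6.77 and -5.17 for Cox7b2 over Cox7b, and -6.01 and -5.13 for Cox8c over Cox8a. Cox6b2 over Cox6b1 fell short of the threshold, with a difference of -3.56 (exact permutation p = 0.143), and -2.07 and -5.05 within the multiplexed libraries. Its difference was -5.03 without dcat/dcat vehicle replicate 1, the only vehicle library that overlapped the busulfan libraries. Leaving that library out makes the rest separate, so no p-value is given for it. Ndufb11b over Ndufb11, not part of the adjusted family, differed by -5.91, given with no test because the pair was chosen for its values, with -4.92 and -6.89 within the multiplexed libraries. The partners Cox4i2, Cox6a2 and Cox7a1 are not analysed here.

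**Figure D2:**
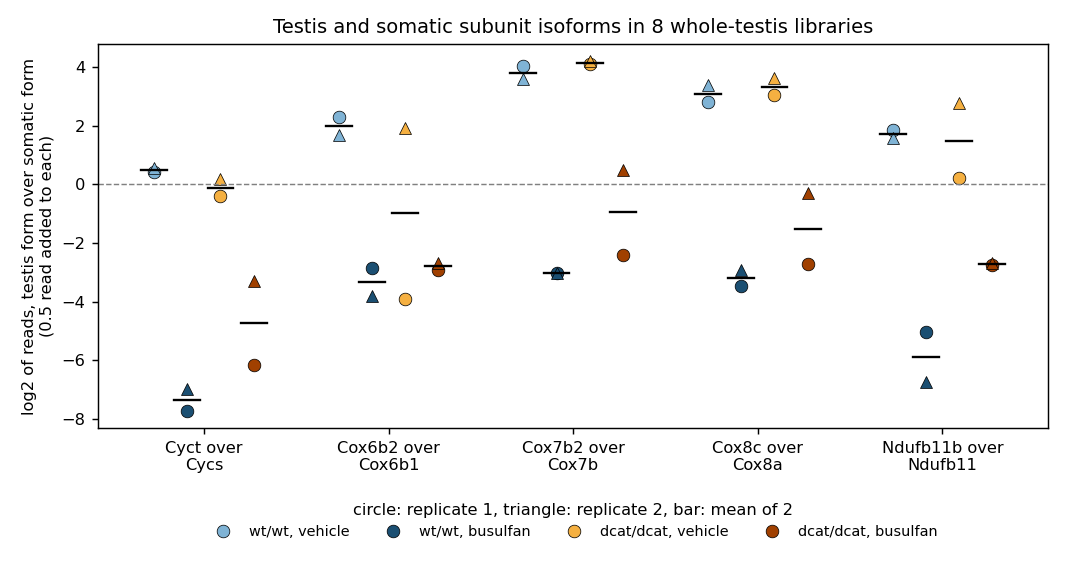
Log2 of the reads of a testis form over those of its somatic form in each library (0.5 read added to each), for 4 pairs compared and the added pair Ndufb11b over Ndufb11; colours are the 4 groups, circles replicate 1, triangles replicate 2, and bars the mean of 2. The busulfan libraries lie below the vehicle libraries for every pair except Cox6b2 over Cox6b1, where dcat/dcat vehicle replicate 1 with 0 reads of Cox6b2 lies at -3.91.

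By complex, the sum of complex IV was somewhat lower after busulfan, with no overlap between libraries in either genotype. In wt/wt the closest libraries stood at 10327 RPM after vehicle and 10310 after busulfan. Complexes I, II and V and cytochrome c were higher after busulfan in both genotypes. The 3 testis forms of complex IV summed to 2981 ± 158 RPM (SD, n = 2) in wt/wt after vehicle and 206 ± 8.97 after busulfan, and their somatic forms to 370 ± 33.6 and 2027 ± 110. In dcat/dcat the testis forms summed to 3330 ± 217 and 650 ± 528, and the somatic forms to 418 ± 174 and 1706 ± 233. All of complex IV came to 10483 ± 221 and 9984 ± 460 RPM in wt/wt, and to 11194 ± 907 and 9686 ± 839 in dcat/dcat. Complex V went from 7196 ± 370 to 11892 ± 547 in wt/wt and from 7630 ± 830 to 12314 ± 2.12 in dcat/dcat. Complex I went from 8910 ± 397 to 12325 ± 619 in wt/wt and from 10715 ± 1392 to 12555 ± 117 in dcat/dcat. Complex II stood at 637 ± 18.6 against 1463 ± 71.98 and cytochrome c at 513 ± 0.47 against 1614 ± 33.7 in wt/wt. Complex III went from 3218 ± 36.8 to 4280 ± 135 in wt/wt, and the dcat/dcat libraries overlapped (3500 ± 644 and 3826 ± 190). These sums are descriptions with no test.

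**Figure D3:**
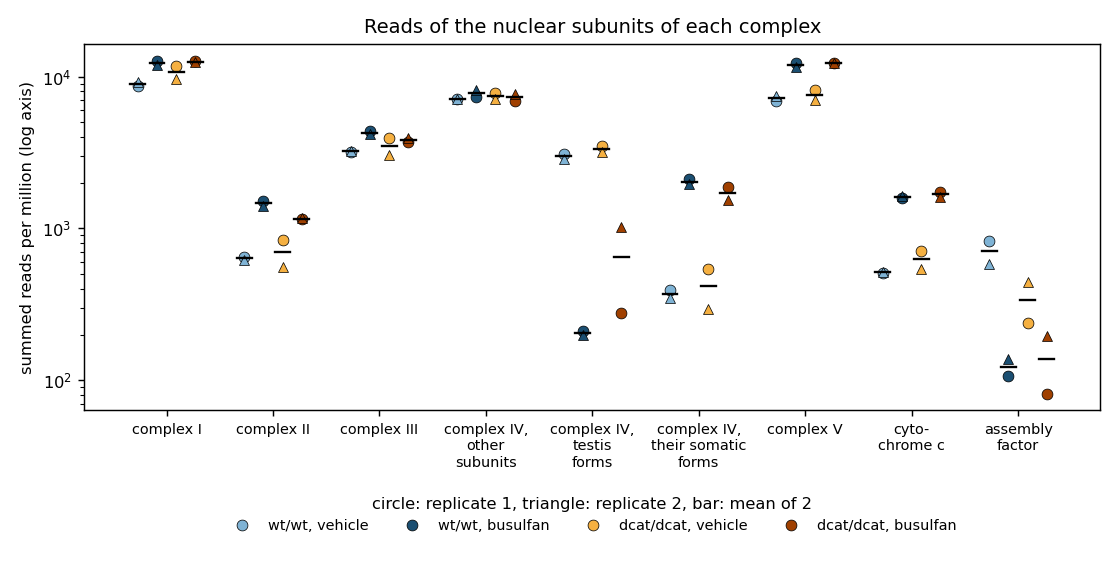
Summed RPM of the member transcripts of each complex on a log axis, per library; colours are the 4 groups, circles replicate 1, triangles replicate 2, and bars the mean of 2. Complex IV is split into its testis forms (Cox6b2, Cox7b2, Cox8c), their somatic forms and all other subunits; in wt/wt the testis forms go from 2981 to 206 and their somatic forms from 370 to 2027.

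In complex I, the NADH dehydrogenase, 11 of 35 transcripts rose and 2 fell in wt/wt testis, and 6 rose and 1 fell in dcat/dcat. Of all transcripts, 35.4% rose and 38.3% fell in wt/wt, and 31.3% and 31.4% in dcat/dcat. The 3 transcripts with most reads over all 8 libraries, those of Ndufc1, Ndufa2 and Ndufa6, did not rise. Ndufc1, a small accessory subunit, was read at 611 and 984 RPM after vehicle and 469 and 442 after busulfan in wt/wt, a fall of 0.87 ± 0.39 (log2; edgeR, adjusted p = 0.0437), and its change in dcat/dcat was -0.63 ± 0.38 (adjusted p = 0.144). The wt/wt call was lost without wt/wt vehicle replicate 2 (-0.15, adjusted p = 0.76) or either wt/wt busulfan library (adjusted p = 0.178 and 0.0984). Ndufa2 and Ndufa6, both accessory subunits, changed by 0.05 ± 0.38 and 0.31 ± 0.40 in wt/wt, short of the threshold. Ndufa4, which stood above Ndufc1 in the wt/wt busulfan libraries, went from 177 and 208 RPM to 818 and 615 and rose by 1.80 ± 0.44 in wt/wt (edgeR, adjusted p = 7.86e-04) and 1.83 ± 0.45 in dcat/dcat (adjusted p = 0.00156). The accessory subunit Ndufb9 rose by 0.91 ± 0.40 in wt/wt (adjusted p = 0.0445), a call lost with RLE scaling (adjusted p = 0.0584), and without wt/wt vehicle replicate 2 or wt/wt busulfan replicate 1 or 2 (adjusted p = 0.0794, 0.118 and 0.116). The X-linked accessory subunit Ndufa1 was read at 138 and 208 RPM after vehicle and 712 and 598 after busulfan in wt/wt and at 237 and 116, then 683 and 424, in dcat/dcat. It rose by 1.81 ± 0.45 (edgeR, adjusted p = 9.72e-04) and 1.86 ± 0.48 (adjusted p = 0.00222). The assembly factor Ndufaf3 fell, from 827 and 582 RPM to 106 and 139 in wt/wt (-2.48 ± 0.49, adjusted p = 8.79e-05) and from 237 and 442 to 81.3 and 196 in dcat/dcat (-1.32 ± 0.51, adjusted p = 0.0265). Without dcat/dcat vehicle replicate 2 the dcat/dcat changes were 1.33 (adjusted p = 0.0938) for Ndufa1 and -0.54 (adjusted p = 0.57) for Ndufaf3, and without dcat/dcat busulfan replicate 1 Ndufaf3 was at -0.88 (adjusted p = 0.163).

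Complex II, which links the citric acid cycle to the chain, had 2 of 4 transcripts higher in wt/wt and 1 of 4 in dcat/dcat, and none fell. The shares of all transcripts that rose were 35.4% and 31.3%. The iron-sulphur subunit Sdhb was read at 236 and 347 RPM after vehicle and 636 and 606 after busulfan in wt/wt, a rise of 1.01 ± 0.42 (edgeR, adjusted p = 0.0326). The change of Sdhb in dcat/dcat was 0.69 ± 0.45 (adjusted p = 0.183). The membrane anchor Sdhd rose in both genotypes, by 2.28 ± 0.57 (adjusted p = 0.00106) and 1.52 ± 0.53 (adjusted p = 0.0153). The flavoprotein Sdha and the anchor Sdhc, the other two subunits, changed by 0.78 ± 0.51 and 1.08 ± 0.56 in wt/wt and did not pass the threshold. The call of Sdhb was lost without wt/wt vehicle replicate 1 (adjusted p = 0.0738) or wt/wt busulfan replicate 1 or 2 (adjusted p = 0.0537 and 0.158), and that of Sdhd in dcat/dcat without dcat/dcat vehicle replicate 2 or dcat/dcat busulfan replicate 2 (adjusted p = 0.0913 and 0.061).

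In complex III, the cytochrome bc1 complex, 2 of 9 transcripts rose and 1 fell in wt/wt, and 1 rose and 1 fell in dcat/dcat. The shares of all transcripts that rose and fell were 35.4% and 38.3% in wt/wt, and 31.3% and 31.4% in dcat/dcat. The small subunit Uqcr11 was read at 315 and 236 RPM after vehicle and 908 and 840 after busulfan in wt/wt and rose by 1.63 ± 0.40 (edgeR, adjusted p = 8.01e-04), and by 1.54 ± 0.41 (adjusted p = 0.00285) in dcat/dcat. Uqcr10 rose by 1.37 ± 0.38 in wt/wt (adjusted p = 0.00241), and its value in dcat/dcat was 0.43 ± 0.38 (adjusted p = 0.331). Uqcrq, a ubiquinone-binding subunit, had 3 transcripts that differed: the most abundant changed by -0.26 ± 0.37 in wt/wt (adjusted p = 0.54), whereas another was read 11 and 36 times after vehicle and 1 and 3 times after busulfan and fell by 4.01 ± 0.76 on the log2 scale (adjusted p = 6.09e-05). In dcat/dcat the same transcript was read 3 and 45 times after vehicle and 1 and 10 times after busulfan, which overlap as RPM, and it changed by -1.98 ± 0.65 (adjusted p = 0.0118), or -0.44 (adjusted p = 0.797) without dcat/dcat vehicle replicate 2. With reads summed over the gene, Uqcrq was at -0.75 (adjusted p = 0.0443) in wt/wt and -0.51 (adjusted p = 0.179) in dcat/dcat. Transcripts of 1 gene overlap, and the counting could divide reads between them.

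Apart from the paired forms, complex IV was mostly level. Cox6c stood at 946 and 1220 RPM after vehicle and 1469 and 1629 after busulfan in wt/wt, a difference of 0.47 ± 0.34 (edgeR, adjusted p = 0.204). Cox7c, at 1123 and 1164, then 1045 and 1109, differed by -0.13 ± 0.33 (adjusted p = 0.74), and Cox4i1 by 0.74 ± 0.40 (adjusted p = 0.0944). Cox6a1 rose by 1.49 ± 0.37 in wt/wt (adjusted p = 0.00105) and was at 0.82 ± 0.38 in dcat/dcat (adjusted p = 0.0625). Cox7a2, the widely expressed form of subunit VIIa, fell: its main transcript was read at 1419 and 1761 RPM after vehicle and 727 and 710 after busulfan in wt/wt. The groups did not overlap, and the change was -1.19 ± 0.35 (adjusted p = 0.00371) in wt/wt and -0.90 ± 0.35 (adjusted p = 0.0284) in dcat/dcat. The wt/wt value was -0.71 (adjusted p = 0.107) without wt/wt vehicle replicate 2, and the dcat/dcat value -0.54 (adjusted p = 0.277) without dcat/dcat vehicle replicate 2 and -0.66 (adjusted p = 0.171) without dcat/dcat busulfan replicate 1. A second, non-coding Cox7a2 transcript fell by 2.48 ± 0.86 (adjusted p = 0.0117) and 2.38 ± 0.67 (adjusted p = 0.00422) on the same scale, with 3 reads in all in the wt/wt busulfan libraries (ratio 5.91, counting interval 1.59 to 32.6), and its wt/wt call was lost with any of the 4 libraries left out (adjusted p from 0.0553 to 0.11).

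Complex V, the ATP synthase, had 8 of 25 transcripts higher and 1 lower in wt/wt and 9 higher and 1 lower in dcat/dcat. Of all transcripts, 35.4% were higher and 38.3% lower in wt/wt, and 31.3% and 31.4% in dcat/dcat. Atp5mc3, which encodes the proton-carrying subunit c, was read at 236 and 263 RPM after vehicle and 1226 and 1092 after busulfan in wt/wt and at 541 and 225, then 1008 and 827, in dcat/dcat. It rose by 2.14 ± 0.42 (edgeR, adjusted p = 8.74e-05) and 1.48 ± 0.42 (adjusted p = 0.00447). Atp5mc2, which encodes the same protein, rose by 1.72 ± 0.56 (adjusted p = 0.00809) and 2.92 ± 0.63 (adjusted p = 6.28e-04), with 0 and 8 reads in the dcat/dcat vehicle libraries. One of 3 transcripts of Atp5f1c, the rotating central stalk, was read 2 and 1 times after vehicle and 13 and 14 times after busulfan in wt/wt, and rose by 2.51 ± 0.72 (adjusted p = 0.0032) and 2.40 ± 0.69 (adjusted p = 0.00483). Its busulfan over vehicle ratio in wt/wt was 6.09, with a counting interval of 1.88 to 31.4. Without dcat/dcat vehicle replicate 2 the dcat/dcat calls of Atp5mc3 (0.89, adjusted p = 0.127) and Atp5f1c (2.12, adjusted p = 0.198) were lost, and in wt/wt so were those of Atp5f1c without wt/wt vehicle replicate 2 (adjusted p = 0.0502) and of Atp5mc2 without wt/wt busulfan replicate 2 (adjusted p = 0.124). Atp5f1b, the catalytic beta subunit, and Atp5if1, the inhibitor of the enzyme's reverse reaction, were not called, at 0.68 ± 0.35 (adjusted p = 0.0777) and 0.37 ± 0.36 (adjusted p = 0.357) in wt/wt. The transcript that fell belonged to Atp5mj, a small membrane subunit: it was read 17 and 16 times after vehicle and 0 and 2 times after busulfan in wt/wt, a ratio of 24.4 (counting interval 6.23 to 210), with a fitted change of -4.46 ± 0.76 (adjusted p = 1.73e-05). The main Atp5mj transcript changed by -0.10 ± 0.40 (adjusted p = 0.824), and with reads summed over the gene the wt/wt change was -0.68 (adjusted p = 0.0858). In dcat/dcat the same minor transcript changed by -1.52 ± 0.58 (adjusted p = 0.0255), which no longer passed with any of the 4 libraries left out (adjusted p from 0.051 to 0.0874).

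All 3 X-linked members, Ndufa1, Ndufb11 and Cox7b, rose in both genotypes, with median log2 fold changes of 3.08 in wt/wt and 2.41 in dcat/dcat. Of the other 94 X-linked transcripts, 66 rose and 21 fell in wt/wt (median 2.51), and 65 rose and 17 fell in dcat/dcat (median 2.14). The 89 autosomal members had medians of 0.48 and 0.43. The X chromosome is known to be silenced in spermatocytes; its part here was not tested.

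Other genes of the pathway were taken from a list drawn up with the members. Beside the counts that follow, 35.4% of all transcripts rose and 38.3% fell in wt/wt, and 31.3% and 31.4% in dcat/dcat. Of 8 respiratory chain transcripts outside the symbol rule, 5 rose and 1 fell in wt/wt and 3 rose in dcat/dcat, with medians of 1.60 and 1.35, against 0.50 and 0.51 over the members. Cyc1, the cytochrome c1 of complex III, rose by 1.66 ± 0.62 in wt/wt (edgeR, adjusted p = 0.0191), and its change in dcat/dcat was 0.90 ± 0.65 (adjusted p = 0.227). Its call was lost without wt/wt vehicle replicate 1 (1.21, adjusted p = 0.102) or wt/wt busulfan replicate 2 (0.82, adjusted p = 0.354). Of 11 transcripts of the citric acid cycle and pyruvate dehydrogenase, 3 rose and 2 fell in wt/wt and 2 rose and 1 fell in dcat/dcat. Of 8 transcripts of inner membrane carriers and outer membrane pores, 5 rose in wt/wt and 4 in dcat/dcat, and none fell (medians 1.91 and 1.57). Pdha2, the testis form of the pyruvate dehydrogenase alpha subunit, was read 14 and 28 times in wt/wt after vehicle and 4 and 0 times after busulfan, and 9 and 44, then 1 and 6 times in dcat/dcat. It fell by 3.84 ± 0.73 (adjusted p = 6.25e-05) and 2.86 ± 0.66 (adjusted p = 0.00107) on the log2 scale. Slc25a4, a somatic ADP/ATP carrier, was read at 118 and 153 RPM and then 545 and 563 in wt/wt, and rose by 1.96 ± 0.47 (adjusted p = 7.36e-04) there and by 2.19 ± 0.48 (adjusted p = 7.37e-04) in dcat/dcat. Their partners Pdha1 and Slc25a31 are not analysed here.

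The 10 mitochondrially encoded transcripts taken here, of complexes I, IV and V, went up more than the nuclear members as a share of reads. These 10 transcripts summed to 44144 ± 1655 RPM in wt/wt after vehicle and 143570 ± 4370 after busulfan, against 31662 ± 392 and 41680 ± 856 for the members. In wt/wt 10 of 10 rose and in dcat/dcat 9 of 10, against 35.4% and 31.3% of all transcripts.

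Between the genotypes, no member differed after vehicle. The test called 0 of 92 (0.0% of all 2783 transcripts were called in either direction), DESeq2 also called 0, and 1 member, Ndufb3, had an unadjusted p under 0.05. After busulfan, 3 of 92 members were higher in dcat/dcat and 0 lower, against 5.39% and 0.431% of all transcripts, and the 3 were testis forms: Cyct, Cox7b2 and Cox8c. Cyct was read 0 and 1 times in the wt/wt busulfan libraries and 1 and 14 times in the dcat/dcat ones, a ratio of 17.2 (counting interval 2.65 to 724) and a fitted difference of 3.76 ± 1.10 (edgeR, adjusted p = 0.0447). Cox7b2 stood at 45.4 and 52.0 against 97.6 and 352 RPM, a difference of 2.29 ± 0.62 (adjusted p = 0.0282), and Cox8c at 90.8 and 104 against 130 and 589, a difference of 1.99 ± 0.54 (adjusted p = 0.0299). The groups did not overlap for any of the 3, but the dcat/dcat mice lay far apart. Dcat/dcat busulfan replicate 2 carried most of the difference: without it Cyct was at 1.31, Cox7b2 at 0.95 and Cox8c at 0.39, with adjusted p from 0.89 to 0.947. The same library held 37694 RPM of late spermatid markers against 20949 in the other mouse, and 248 against 114 of round spermatid markers. Spermatocyte markers (3 of 6 read) summed to 363 and 381 RPM in the wt/wt busulfan libraries and 504 and 1220 in the dcat/dcat ones, and erythroid markers (2 of 4 read, both called lower in dcat/dcat) to 924 and 771 against 0 and 20.7. Leydig cell markers (8 of 9 read) summed to 41013 and 45952 RPM in the wt/wt busulfan libraries, against 25438 and 21293 in dcat/dcat. They include Insl3, which the paper names a putative TENT5C target. The part of these marker levels in the result was not tested. No call remained under DESeq2 (0 of 92), or without wt/wt busulfan replicate 1 or 2 (0 each). Over all members the median difference was 0.05, against 0.20 over all transcripts. The interaction of genotype and busulfan called 0 of 92 members (9 of 2783 transcripts, 0.323%). It called 0 under DESeq2 and had an unadjusted p under 0.05 for 5 members, Cyct, Cox7b2, Cox8c, Ndufb11b and the minor Atp5mj transcript, each with the smaller fall in dcat/dcat (adjusted p from 0.0979 to 0.239). The fall of the testis forms was thus not shown to differ between genotypes.

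Poly(A) tails of the members were shorter than those of other nuclear transcripts and shortened after busulfan along with them. The mean tail over all member reads was 127 ± 3.04 nt (SD, n = 2) in wt/wt after vehicle and 109 ± 2.91 nt after busulfan, and 127 ± 6.79 and 111 ± 4.78 nt in dcat/dcat. Other nuclear transcripts averaged 144 ± 1.17 and 123 ± 2.38 nt in wt/wt and 144 ± 6.41 and 122 ± 1.79 nt in dcat/dcat, so members had the lower mean in 8 of 8 libraries. Reads with tails of 30 to 120 nt made up 45.2% ± 1.26 of member reads after vehicle and 57.9% ± 0.42 after busulfan in wt/wt. After vehicle, complex V had the highest group mean of the 5 complexes, at 131 ± 0.25 nt in wt/wt and 135 ± 2.37 nt in dcat/dcat, although complex III stood at 133 nt in wt/wt vehicle replicate 2 and its wt/wt mean of 126 ± 9.38 nt took in that of complex V. The lowest group mean after busulfan was that of complex I, at 104 ± 3.88 and 108 ± 5.84 nt, the dcat/dcat value lying within 1 SD of those of complexes III, IV and V. Complex II was at 106 ± 19.8 nt in wt/wt after vehicle and 118 ± 1.76 nt after busulfan, a difference smaller than the spread between the vehicle mice. All reads of the mitochondrial chromosome together had group means of 65.0 to 68.3 nt. Of the mitochondrially encoded subunit transcripts described above, 0 of 9 tested changed in either genotype.

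**Figure D4:**
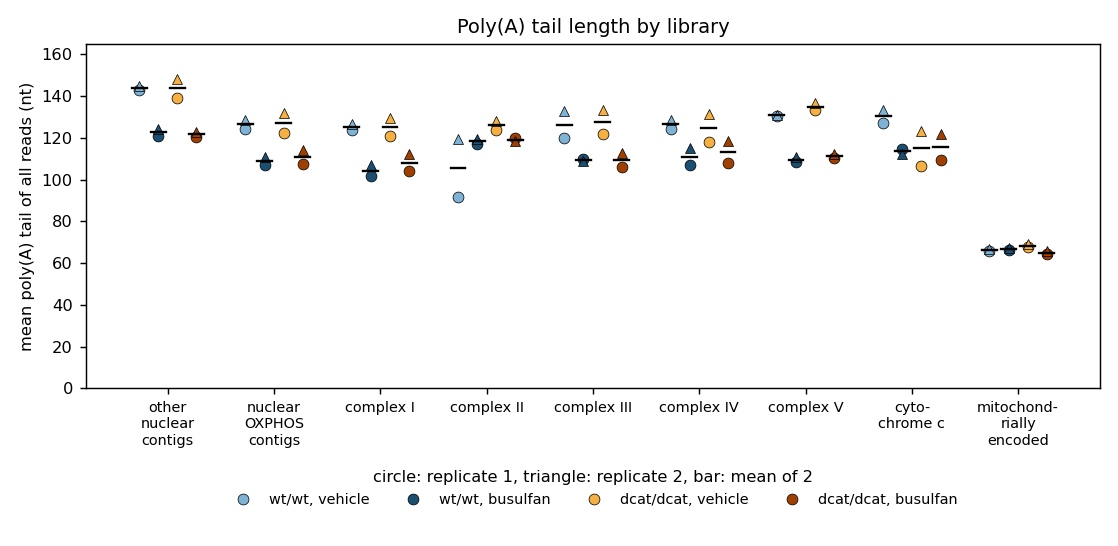
Mean poly(A) tail length in nt over all reads of each set, per library; colours are the 4 groups, circles replicate 1, triangles replicate 2, and bars the mean of 2. Members average 127 nt after vehicle and 109 nt (wt/wt) or 111 nt (dcat/dcat) after busulfan, below the other nuclear transcripts in every library, and the mitochondrially encoded transcripts lie between 64.4 and 69.02 nt in the 8 libraries.

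Transcript by transcript, 46 of 92 members had the 10 reads in each of the 4 libraries that a tail test in wt/wt asked for, and 35 of 92 in dcat/dcat. In wt/wt, 15 of 46 had shorter tails after busulfan (limma, adjusted p under 0.05) and 0 longer, against 39.1% and 0.569% of the 527 transcripts tested. In dcat/dcat, 4 of 35 were shorter and 0 longer, against 19.5% and 0.0% of 441. The unmoderated test of the study's methods, run on the same values, called 0 of the 46 and 0 of the 35 after adjustment. The median difference was -16.9 nt over the members and -19.9 nt over all transcripts in wt/wt, and -17.7 and -17.2 nt in dcat/dcat. Once each library was centred on its median tail, the medians were 6.34 nt over the members and 3.28 nt over all in wt/wt, with 0 members called, and 5.08 and 5.55 nt in dcat/dcat, with 1 called longer. The median tail change was thus below 0 in nt and above 0 after centring, for the members and for all transcripts alike. No testis form had the reads for either busulfan test.

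**Figure D5:**
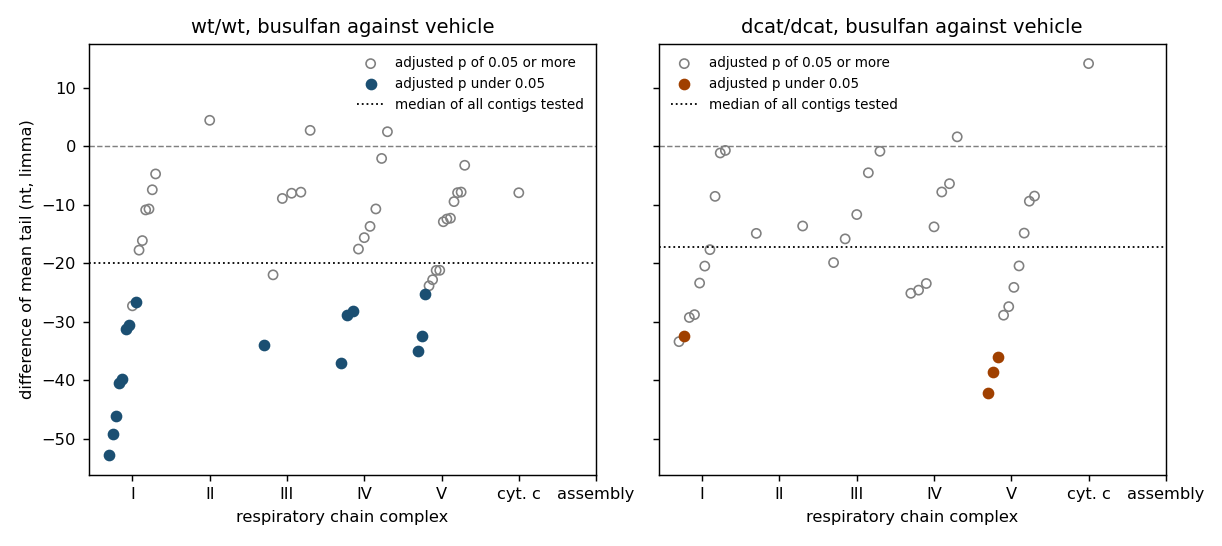
Difference of the mean poly(A) tail in nt after busulfan against vehicle for each member transcript read 10 times or more in every library compared, by complex, in wt/wt (left, 46 transcripts) and dcat/dcat (right, 35). Filled circles have an adjusted p under 0.05 (limma) and the dotted line is the median of all transcripts tested; 43 of 46 and 33 of 35 transcripts lie below 0.

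Complex I supplied 15 of the 46 members tested for tails in wt/wt and 8 of the 15 with shorter tails. Ndufb8, an accessory subunit of the membrane arm, had mean tails of 135 and 138 nt after vehicle and 79.1 and 88.9 nt after busulfan, which was -52.9 ± 9.76 nt by limma (SE, adjusted p = 0.00198). Ndufa13, known also as GRIM-19, went from 134 and 138 nt to 88.8 and 90.9 nt (-46.1 ± 8.53 nt, adjusted p = 0.00198). Ndufa7 went from 172 and 129 nt to 97.7 and 105 nt (-49.2 ± 13.6 nt, adjusted p = 0.0145) and Ndufb4 from 126 and 141 nt to 85.6 and 101 nt (-40.6 ± 10.7 nt, adjusted p = 0.0111). In each of the 4 the vehicle libraries lay above the busulfan libraries, while their counts did not pass the test, with log2 fold changes from -0.32 to 0.26. The calls of Ndufa7 (-27.3 nt, adjusted p = 0.118, without wt/wt vehicle replicate 1) and Ndufb4 (-33.0 nt, adjusted p = 0.0682, without wt/wt vehicle replicate 2, and -32.9 nt, adjusted p = 0.0661, without wt/wt busulfan replicate 1) were lost with 1 library left out.

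In dcat/dcat testis, complex V supplied 10 of the 35 members tested and 3 of the 4 with shorter tails. Atp5mk, a small subunit of the membrane part, had mean tails of 141 and 144 nt after vehicle and 104 and 96.1 nt after busulfan (-42.3 ± 11.7 nt; limma, adjusted p = 0.0321). Atp5if1 went from 152 and 150 nt to 108 and 117 nt (-38.7 ± 10.2 nt, adjusted p = 0.0281), and in wt/wt from 140 and 149 nt to 113 and 111 nt (-32.4 ± 7.54 nt, adjusted p = 0.00636). Atp5pf, of the peripheral stalk, differed by -36.1 ± 11.2 nt (adjusted p = 0.0484), and Ndufc1 by -32.5 ± 10.2 nt (adjusted p = 0.0499). Without dcat/dcat vehicle replicate 1 none of the 35 was called, and without dcat/dcat busulfan replicate 1 only 1 was.

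Tail changes were set beside count calls. Of the 28 members whose counts rose in wt/wt, 11 could be tested for tails, and 0 were called shorter (10 of 11 were below 0, median -9.48 nt). Of the 53 not called by count, 33 were tested and 13 were called shorter (median -21.2 nt), and both tested members whose counts fell, Cox7a2 and Ndufc1, had shorter tails. The tail call of Ndufc1 in wt/wt (-26.7 nt, adjusted p = 0.0322) was lost without wt/wt vehicle replicate 1 or 2 or wt/wt busulfan replicate 2 (adjusted p = 0.0508, 0.124 and 0.224). In dcat/dcat, 3 members whose counts rose could be tested, with 0 called shorter and a median of -20.5 nt, and of the 31 not called by count that were tested 4 were called shorter (median -15.9 nt), so the order of the medians was the reverse of that in wt/wt. Across transcripts, which share the libraries, the rank correlation of count and tail changes was 0.37 over 46 members in wt/wt and 0.08 over 35 in dcat/dcat, as a description. Over all transcripts tested for tails, 39.1% were called shorter in wt/wt and 19.5% in dcat/dcat. Those transcripts were not split by count call, so these counts do not set the members apart. Whether these groups differ was not tested. Cycs, with the strongest count support among the rising members, differed in tail by -7.96 ± 7.48 nt in wt/wt (limma, adjusted p = 0.433) and 14.1 ± 10.6 nt in dcat/dcat (adjusted p = 0.364).

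Testis forms carried longer tails than their somatic partners in most libraries where both had at least 5 reads. Cyct exceeded Cycs in 5 of 5 such libraries, by 7.69 to 34.4 nt in the 4 vehicle libraries, and Cox6b2 exceeded Cox6b1 in 6 of 6, by 18.8 to 42.8 nt. Cox7b2 exceeded Cox7b in 4 of 4 and Ndufb11b exceeded Ndufb11 in 3 of 4. Cox8c and Cox8a could be compared in all 8: the differences were -6.86, 16.5, 4.55 and -5.94 nt in the vehicle libraries and 14.6, 35.1, 49.7 and 10.5 nt in the busulfan libraries. The busulfan libraries were higher by 25.4 nt, short of the threshold (exact two-sided permutation p = 0.0857). Few reads of either form stand behind these means.

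Between genotypes, no member differed in tail length. After vehicle 0 of 35 were called, and 0.139% of 720 transcripts in either direction. The smallest p-values were those of Cox7b2, with tails of 87.6 and 100 nt in wt/wt and 121 and 109 nt in dcat/dcat (21.3 ± 8.71 nt; limma, adjusted p = 0.989), and Atp5pf (18.03 ± 10.1 nt, adjusted p = 0.989). After busulfan 0 of 74 were called, against 1.35% of 1188 transcripts, and the smallest p-values were those of Ndufa13 (20.7 ± 8.36 nt, adjusted p = 0.56) and Ndufb4 (23.5 ± 9.98 nt, adjusted p = 0.56). The interaction called 0 of 33, against 0.885% of 339, with the smallest p-values for Ndufb4 (39.4 ± 15.0 nt, adjusted p = 0.501) and Atp5mk (-29.8 ± 12.5 nt, adjusted p = 0.6). Unadjusted p-values were under 0.05 for 1, 2 and 2 members in these 3 comparisons. With Benjamini-Hochberg adjustment, which the study's methods do not describe for tails, their unmoderated test called 0 in the first 2.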

How the data were processed

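Whole-testis poly(A) RNA of 8 mice was sequenced as 2 multiplexed nanopore libraries of 4 barcoded extracts, 1 mouse of each group in each, so that a replicate number marks a shared multiplexed library. Per the labels and the study's methods, the authors assigned barcodes with Deeplexicon (confidence above 0.85), mapped reads to GENCODE vM17 transcripts (mouse build mm10) with minimap2 (2.20-r1061 in the submitters' processing notes) and estimated tails with Nanopolish. The deposited values are raw read counts per transcript, limited to transcripts that reached 10 reads in both mice of some group, and per-read tail lengths in nt (a score with no fixed range). Deposited tables of log2 fold changes and adjusted p-values between genotypes were not used.

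Members were found by symbol and described with GENCODE vM21, which held all 92. The members and the gene lists were chosen with earlier results of these data known. Counts were tested with edgeR 4.0.16 (TMM, quasi-likelihood F test, all 8 libraries as 4 groups) and mean tails with limma 3.58.1 (eBayes with trend, 10 reads or more in every library compared) in R 4.3.3, with Benjamini-Hochberg adjustment over all transcripts tested and a threshold of 0.05. Isoform ratios were compared with exact two-sided permutation tests that enumerated every split (Python 3.11.15). Counting intervals were taken with SciPy 1.17.1, and coding sequences were aligned with Biopython 1.88. RPM values are reads per 1000000 reads of the library in the count table. The SE of a count change is approximate: the absolute log2 fold change over the square root of its F statistic. Counting intervals are exact at 95% and, like the limit of 3 reads behind a count of 0, cover counting error only. The scripts were tested on simulated data. Same-numbered libraries correlated in their deviations from the group means at -0.195 to 0.243 for counts (884 transcripts) and 0.0061 to 0.0618 for tails (339). The labels give replicate numbers only, and the pairing rests on the study's methods, by which a number marks 1 multiplexed library. Named genes are both forms of each isoform pair, the 3 genes with most reads of each complex, up to 4 called, non-overlapping transcripts per direction and comparison, and any called between genotypes or, for tails without a call, the 2 with the smallest p; Ndufb11b as a pair, Ndufa1, Ndufa4, Ndufb9, Ndufaf3, Sdhd, Cox6a1, Cyc1, Ndufb3, the minor transcript of Uqcrq and other genes outside that rule were added after their values were seen. Alternatives were RLE scaling, DESeq2 1.42.0, filterByExpr, reads summed per gene, only the libraries of a contrast, the replicate block, each library left out, and for tails the median, centring, 20 reads, log2, no trend and the methods' unmoderated test; the study's library totals without TMM and the isoform test within multiplexed libraries were chosen after seeing the data.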

Additional observations from a re-analysis of the deposited data

How the results depend on the processing

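Depth limits what can be seen: the smallest library holds 29574 reads, where 3 reads are 101 RPM, and 2 mice a group leave wide errors. The direction of every named change that was called was kept under every alternative except 1: Cox6b2 in dcat/dcat, at 5.32 (adjusted p = 0.133) without dcat/dcat vehicle replicate 2, where the remaining vehicle library had 0 reads; its range with 1 library left out was -2.51 to 5.32. Of 792 values of called named genes under alternatives, 655 kept the call, 136 lost it and 1 turned. Scaling moved the median of all transcripts: 0.09 in wt/wt with TMM, -0.03 with RLE and 0.23 with the study's library totals. With the replicate block, members called by count numbered 38 in wt/wt and 30 in dcat/dcat, and members called by tail 15 and 5, so the pairing moved no count by over 1.5 times. With the replicate block, the isoform differences of -6.22 (Cyct), -5.97 (Cox7b2) and -5.57 (Cox8c) had an exact permutation p = 0.0556, the smallest possible. DESeq2 called 25 members in wt/wt, 17 in dcat/dcat and 0 between genotypes after busulfan, and the cause was not tested. With 1 library left out in turn, the members called by count ranged from 26 to 39 in wt/wt, 15 to 34 in dcat/dcat (15 without dcat/dcat vehicle replicate 2), 0 to 3 between genotypes after busulfan and 0 to 3 for the interaction (1 without dcat/dcat vehicle replicate 2, 3 without dcat/dcat busulfan replicate 1). Members called by tail were 0 in wt/wt and 1 in dcat/dcat after centring, and 0 in both with the methods' unmoderated test after adjustment. In dcat/dcat they were 2 with the median tail, 2 with a minimum of 20 reads and 2 without the trend. The leave-one-out ranges were 10 to 14 in wt/wt and 0 to 4 in dcat/dcat. The Cyct over Cycs difference ranged from -7.13 to -5.66. It lost its call (exact permutation p = 0.0571) without wt/wt vehicle replicate 1 or 2 or dcat/dcat vehicle replicate 2. Cox6b2 over Cox6b1 ranged from -5.03 to -2.97, and was at -5.03 without dcat/dcat vehicle replicate 1, its only overlapping vehicle library.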
